A study of Mus musculus with 12 samples.

Results

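The Schlafen genes of the mouse were followed through 3 culture media in primary aortic smooth muscle cells, which form the contractile layer of arteries. The members are the 7 rows of the gene table whose Ensembl identifiers map to Slfn1, Slfn2, Slfn3, Slfn4, Slfn5, Slfn8 and Slfn9, out of 55822 rows. RNA of these cells was sequenced in 12 libraries, 4 in each of 3 groups, and the labels name no transgene or gene deletion. The 1st group, called naive CM, was given conditioned medium of untreated bone marrow-derived macrophages (BMDMs). The 2nd, called IFNγ/LPS CM, was given medium of BMDMs primed overnight with 20 ng/mL IFNγ and then stimulated with 100 ng/mL LPS for 4 hours. Those macrophages were washed 4 times with PBS before the medium was conditioned for 24 hours. Whether IFNγ or LPS was carried over into the medium was not tested. Both conditioned media were DMEM with 0.3% FBS, 10 ng/mL M-CSF, penicillin and streptomycin, and were applied for 24 hours to cells starved for 48 hours in 0.3% FBS. The 3rd group was kept in regular growth medium; whether those cells were starved, and the serum content of their medium, are not stated in the labels. Strain, sex and age of the mice are not stated either. The titles call the libraries biological replicates but name no animal or culture of origin; the p-values therefore reflect only how far these libraries spread, and some of that spread may be technical.

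Schlafen genes, named after the German word for sleeping, were found in lymphocytes, where some of them slow growth. They are known as genes that interferons and microbial products induce in immune cells and fibroblasts. The family is sorted by length. Slfn1 and Slfn2 are short forms, Slfn3 and Slfn4 are intermediate forms, and Slfn5, Slfn8 and Slfn9 are long forms whose C-terminal part resembles RNA and DNA helicases. All forms share an N-terminal Schlafen core, a fold that in several members binds or cleaves transfer RNA. Slfn2 keeps T cells and monocytes quiescent and protects transfer RNA from cleavage by angiogenin. Interferons act through receptors and JAK kinases on transcription factors that bind promoters at the interferon-stimulated response element (ISRE) or the gamma-activated site (GAS).

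The members lie side by side on chromosome 11. In the GENCODE M21 annotation of the GRCm38 build (mm10), the cluster holds 10 Schlafen genes over 344.4 kb, at chr11:82942341-83286726. From low to high coordinates the members are Slfn5 (chr11:82951349-82964840, plus strand), Slfn9 (chr11:82978390-82991830, minus), Slfn8 (chr11:83002158-83020810, minus), Slfn2 (chr11:83065112-83070678, plus), Slfn1 (chr11:83116849-83122670, plus), Slfn4 (chr11:83175186-83190216, plus) and Slfn3 (chr11:83191330-83215154, plus). The longest annotated reading frames encode 337 codons in Slfn1, 378 in Slfn2, 602 in Slfn4, 640 in Slfn3, 884 in Slfn5 and 910 in each of Slfn8 and Slfn9. The remaining genes of the cluster are Slfn14, a long form, the pseudogene Slfn10-ps, and Slfn5os, an antisense transcript that overlaps Slfn5.

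The promoters are shown because all members moved in the same libraries. RefSeq promoter windows (GRCm38.p6, 250 bases before to 50 bases after a transcription start) were found for 7 of 7 members, with 2 windows for Slfn8. The core of the ISRE was spelled GAAA, any 2 bases, GAAA and searched on both strands. It matched in the 3 long members Slfn5, Slfn8 and Slfn9 and in no window of the short or intermediate forms. The window of Slfn14, a long form of the cluster that is not a member, held no match either. Of 32851 windows of the same length, 3.44% hold such a match. Each line gives 30 bases on either side of the match, 5′ to 3′ on the strand of the gene, with the match in capitals:
Slfn5, chr11:82951917-82951986, plus strand: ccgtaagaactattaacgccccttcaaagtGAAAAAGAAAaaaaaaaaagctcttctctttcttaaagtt
Slfn8, chr11:83020819-83020888, minus strand: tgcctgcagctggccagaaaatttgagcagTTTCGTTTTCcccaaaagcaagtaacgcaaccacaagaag
Slfn9, chr11:82991836-82991905, minus strand: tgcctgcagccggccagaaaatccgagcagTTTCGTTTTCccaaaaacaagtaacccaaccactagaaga
In Slfn8 and Slfn9 the match is on the strand opposite to the gene. It ends 36 bases before the start in Slfn9 and, in Slfn8, 39 or 127 bases before the start according to the window. In Slfn5 it ends 146 bases before the start, inside an intron of a shorter Slfn5 transcript that GENCODE starts farther upstream. The Slfn8 and Slfn9 stretches are identical at 63 of 69 aligned bases, and their whole upstream parts of 250 bases at 83.3% of aligned bases, against 45.1 to 58.5% between other pairs of members.

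The GAS, spelled TTCNNNGAA, matched no member window, against 8.30% of all windows. The NF-κB consensus matched once in Slfn1 and once in Slfn9, against 4.51% of all windows. A word that the short and intermediate forms share, CTTCCTGG, was picked after their windows had been read, so its presence in these 4 genes is a description only; it occurs in 4.12% of all windows:
Slfn1, chr11:83116717-83116784, plus strand: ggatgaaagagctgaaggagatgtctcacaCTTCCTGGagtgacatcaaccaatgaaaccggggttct
Slfn2, chr11:83065028-83065095, plus strand: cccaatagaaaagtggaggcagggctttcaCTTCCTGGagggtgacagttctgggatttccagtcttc
Slfn3, chr11:83191259-83191326, plus strand: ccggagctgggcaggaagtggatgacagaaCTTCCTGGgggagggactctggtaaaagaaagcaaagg
Slfn4, chr11:83175084-83175151, plus strand: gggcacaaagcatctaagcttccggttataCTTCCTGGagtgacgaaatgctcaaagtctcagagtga
A match says nothing about whether a factor was bound, and these windows do not cover distant elements.

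Total estimated counts per library ran from 28097496 to 61493375, and libraries of one group correlated at 0.9885 to 0.993 in log2 CPM (counts per 1000000 of the TMM-scaled total) across genes. The columns of the gene table were assigned to the media by their names, in which M0 was taken to mean naive macrophages and M1 those given IFNγ and LPS. The labels do not spell out this convention, on which every direction given here rests. None of the 10 smooth muscle markers was at 0 in any group. Their summed level was 1110 to 1230, 711 to 802 and 235 to 254 CPM in regular medium, naive CM and IFNγ/LPS CM. Cald1 was the highest of them in each group, at 808, 453 and 118 CPM in that order. From regular medium to naive CM 3 of the 10 were higher with edgeR, 4 were lower and 3 missed the threshold. From naive CM to IFNγ/LPS CM 0 were higher, 8 were lower and 2 missed it. Cnn1 and Myh11, which encode calponin and smooth muscle myosin, and Des stood under 1 CPM in every library. The 15 macrophage markers summed to 13.1 to 15.2 CPM in regular medium, 19.6 to 21.3 CPM in naive CM and 47.9 to 59.1 CPM in IFNγ/LPS CM. Only 4 of the 15 had counts enough to be tested, and all 4 were higher in IFNγ/LPS CM than in naive CM with edgeR. They were Cd14, an LPS co-receptor that made up most of the sum (42.9 against 18.7 CPM), Cd68, a lysosomal protein (881 against 209 counts over the group), Csf1r, the M-CSF receptor (656 against 44 counts), and Lyz2, a lysozyme (67 against 18 counts). The other 11 had too few counts to be tested and went both ways from naive CM to IFNγ/LPS CM, in counts over 4 libraries. The pan-leukocyte marker Ptprc went from 3 to 1, the myeloid factor Spi1 from 4 to 3, Laptm5 from 3 to 0 and Fcer1g from 18 to 12. Mrc1 went from 2 to 10, Itgam from 0 to 6, Adgre1 from 0 to 2, and C1qb and C1qc from 0 to 1 each. Tyrobp stayed at 2 and C1qa at 0. T cell markers summed to 0.0988 to 0.186, 0.119 to 0.259 and 1.39 to 1.86 CPM in regular medium, naive CM and IFNγ/LPS CM. In IFNγ/LPS CM all of it was Lck, which was called higher, and Cd3e, Cd3d, Cd3g, Cd4 and Cd8a were at 0. Adventitial fibroblast markers summed to 409 to 443, 297 to 315 and 185 to 204 CPM in regular medium, naive CM and IFNγ/LPS CM. The fall was carried by Col14a1, at 396, 257 and 110 CPM. Between the conditioned media Dpt and Pi16 also fell, from 1971 to 37 and from 323 to 27 counts, while Pdgfra rose from 13.0 to 63.9 CPM. Lum missed the threshold. Scaled by library totals in place of TMM, it was called lower (log2 fold change -0.48, edgeR adjusted p = 0.00211). From regular medium to naive CM 3 of the 5 were higher and 2 lower, although the sum fell. Neutrophil and monocyte markers summed to 0.0442 to 0.165, 0.0321 to 0.21 and 1.59 to 2.08 CPM in the same order of groups, mostly Ly6c2, which was called higher in IFNγ/LPS CM. Endothelial markers stayed under 1 CPM in every library. The part of these shifts in the Schlafen levels was not tested.

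**Figure D1:**
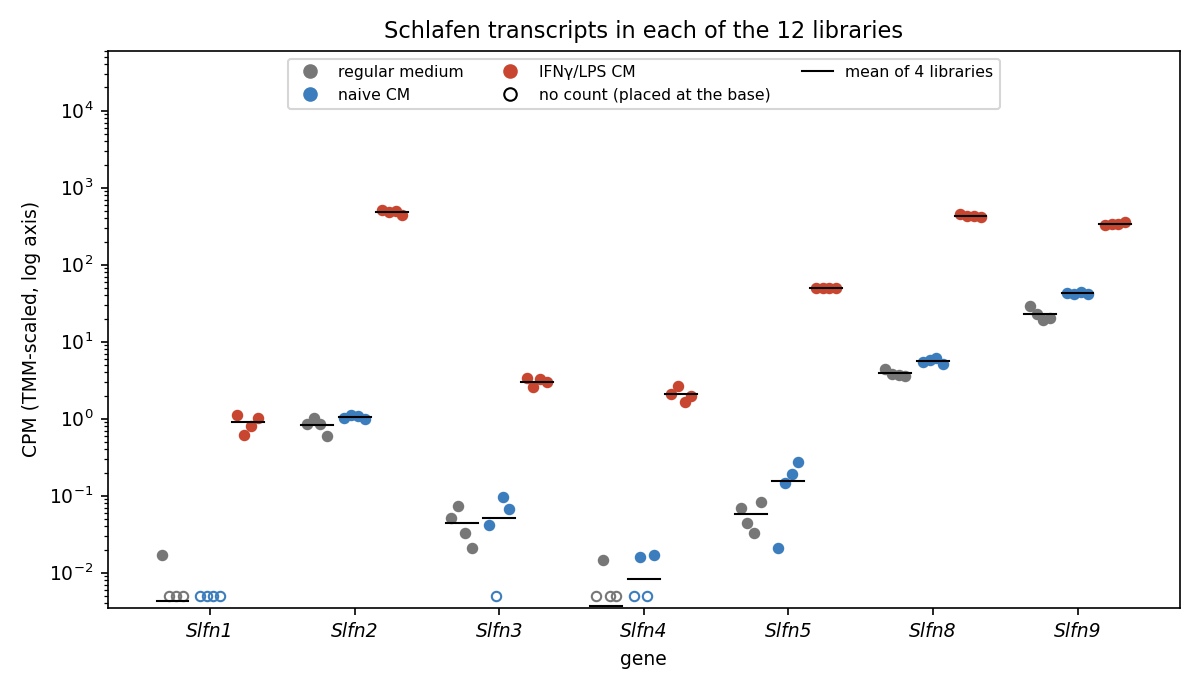
Level of each of the 7 Schlafen genes in each of the 12 libraries, as TMM-scaled CPM on a log axis; points are libraries, horizontal lines are means of 4 and open circles at the base have no count. For every gene the 4 IFNγ/LPS CM libraries stand above the other 8, from 0.608 CPM at the least (Slfn1) to 513 CPM at the most (Slfn2).

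IFNγ/LPS CM was first set against naive CM, which asks what the stimulation of the macrophages added to their medium. Every Schlafen member stood higher in IFNγ/LPS CM, but the sizes differed widely. Slfn2 went from 1.06 ± 0.0619 CPM to 485.4 ± 29.0 CPM, Slfn8 from 5.59 ± 0.409 CPM to 434 ± 14.5 CPM and Slfn9 from 42.9 ± 1.22 CPM to 338.5 ± 11.2 CPM (mean ± SD, n = 4). Slfn5 reached 50.1 ± 0.22 CPM from near 0, and Slfn1, Slfn3 and Slfn4 stayed at or under 3.36 CPM in every library. Tested with edgeR (quasi-likelihood, Benjamini-Hochberg adjustment over 16140 genes, threshold 0.05), 7 of 7 members were higher. Of all genes tested 71.9% were called in either direction and 36.1% higher. Only Slfn2, Slfn8 and Slfn9 had counts enough to pass the filter on low values without the IFNγ/LPS CM libraries. The remaining 4 were tested because they were high in IFNγ/LPS CM, so their calls are not counted as support.

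Slfn2, the short form of T cell quiescence, stood at 513, 478, 502 and 448 CPM in replicates 1 to 4 of IFNγ/LPS CM. In naive CM it stood at 1.02, 1.13, 1.09 and 1.00 CPM. The lowest IFNγ/LPS CM library lay far above the highest naive CM library, and the 4 naive CM libraries lay close together. The change was 457-fold, or 8.84 on the log2 scale (SE 0.084, edgeR adjusted p = 7.56e-24). Ranked by fitted log2 fold change, Slfn2 was the 112th highest of 16140 genes. In bulk RNA a change in the number of cells that express a gene and a change in RNA per cell cannot be told apart, which applies to every level given here.

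Slfn1, the short form first linked to growth arrest of T cells, had 42, 21, 29 and 35 counts in IFNγ/LPS CM, or 1.13, 0.608, 0.804 and 1.03 CPM. It had no count in any naive CM library. Set against the 3 counts over the group that a total of 0 allows, it was at least 59.8-fold higher (edgeR adjusted p = 2.15e-08). Although both are short forms and lie next to each other in the cluster, Slfn1 stayed at 0.893 ± 0.234 CPM where Slfn2 reached 485.4 CPM. This bound and the counting intervals given here cover counting error only.

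The intermediate forms were low throughout. Slfn3, described in T cells and in the intestinal epithelium, stood at 3.36, 2.55, 3.24 and 2.98 CPM in IFNγ/LPS CM. It stood at 0.0416, 0, 0.0962 and 0.0678 CPM in naive CM, which is 9 counts in 4 libraries. The groups were far apart, with a ratio of 67.6 and a 95% counting interval of 35.3 to 149 (edgeR adjusted p = 1.4e-11). Slfn4, known from macrophages and other myeloid cells, stood at 2.12, 2.66, 1.66 and 1.95 CPM in IFNγ/LPS CM. In naive CM it had 2 counts, 1 each in replicates 2 and 4. The ratio was 209.7 with an interval of 57.5 to 1739, wide because of those 2 counts (edgeR adjusted p = 1.1e-11). Macrophage markers, whose sum was 19.6 to 21.3 CPM in naive CM and 47.9 to 59.1 CPM in IFNγ/LPS CM, moved in the same libraries, and their part in the Slfn4 level was not tested.

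Slfn8, a long form, stood at 455, 430.2, 432 and 420.6 CPM in IFNγ/LPS CM. In naive CM it stood at 5.51, 5.71, 6.06 and 5.08 CPM. The groups did not overlap, which held in this direction for 34.9% of all genes tested. The change was 78.2-fold, or 6.29 on the log2 scale (SE 0.0623, edgeR adjusted p = 1.15e-23), the 240th highest of 16140 genes by log2 fold change.

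Slfn9, the neighbour of Slfn8 and of the same length, stood at 330.04, 336, 333 and 355 CPM in IFNγ/LPS CM. In naive CM it stood at 43.3, 42.1, 44.5 and 41.8 CPM. It was the one member with a sizeable level before the change, and its rise was the smallest of the 7 by fitted log2 fold change. The rise was 7.89-fold, or 2.98 on the log2 scale (SE 0.103, edgeR adjusted p = 4.93e-11).

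Slfn5, the long form closest to one end of the cluster, had 1866, 1725, 1804 and 1709 counts in IFNγ/LPS CM, which is 49.9 to 50.4 CPM. In naive CM it stood at 0.0208, 0.146, 0.192 and 0.271 CPM on 32 counts. Relative to their mean, the naive CM libraries differed more among themselves than the IFNγ/LPS CM libraries did, and none came near them. The ratio of the summed counts was 313 with a 95% counting interval of 221.8 to 458.6 (edgeR adjusted p = 4.01e-16). Reads of Slfn5 and of the overlapping antisense transcript lie on opposite strands of the same stretch; Slfn5os was at 0 in all 12 libraries.

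**Figure D2:**
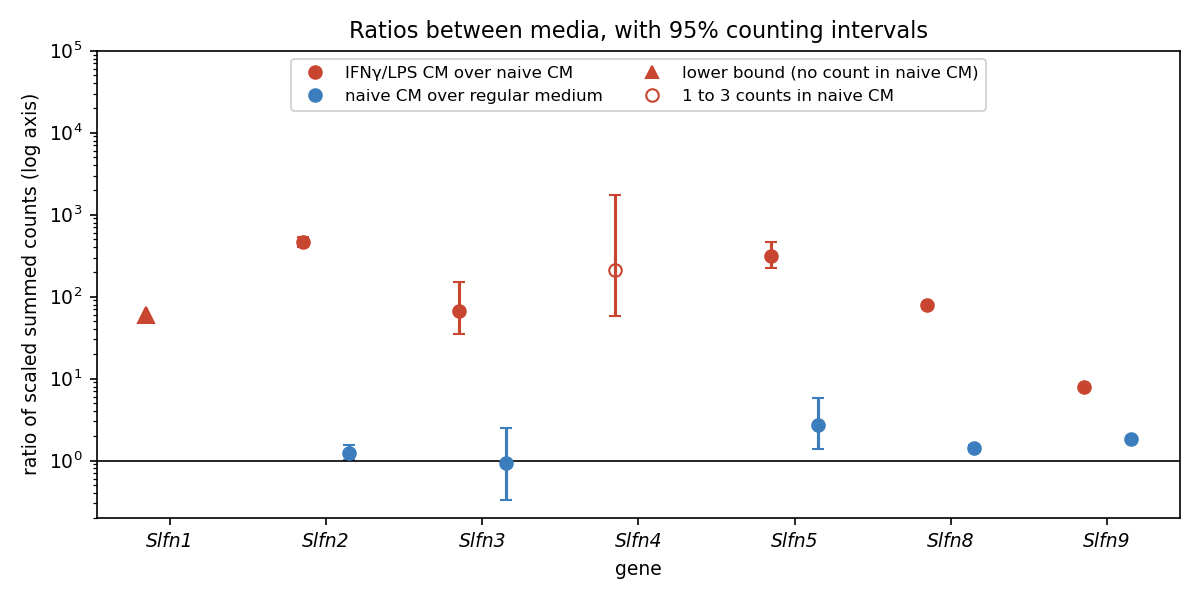
Ratio of TMM-scaled summed counts between media for each member on a log axis, IFNγ/LPS CM over naive CM and naive CM over regular medium, with bars for 95% counting intervals; the triangle is a lower bound, the open circle rests on 1 to 3 counts, and pairs of groups at or under 3 counts are not drawn. The 1st ratio runs from 7.93 for Slfn9 to 459 for Slfn2, and the 2nd stays between 0.921 and 2.73.

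Some members are close enough in sequence for reads to be divided between them. Aligned over their reading frames, Slfn8 and Slfn9 were identical at 92.7% of aligned bases and Slfn3 and Slfn4 at 92.1%. Slfn1 and Slfn2 were identical at 70.3%, and Slfn5 and Slfn8 at 60.6%. Of the words of 31 bases in the annotated transcripts, 26.7% of those of Slfn8 occur in another Schlafen gene, against 19.8% for Slfn9, 15.9% for Slfn3, 15.3% for Slfn4, 8.14% for Slfn2, 1.96% for Slfn1 and 0 for Slfn5. Genes outside the family share further words, 18.9% of those of Slfn3, 9.37% of Slfn4, 4.92% of Slfn5, 3.79% of Slfn2, 3.76% of Slfn9, 1.31% of Slfn1 and 0.14% of Slfn8. The values of Slfn8 against Slfn9, of Slfn3 against Slfn4 and of Slfn3 on its own are the ones to be read with care. Pooling each pair removes the question of how reads were divided within it, but not that of words shared with other genes. Slfn8 and Slfn9 together were 16.0-fold higher in IFNγ/LPS CM than in naive CM (counting interval 15.7 to 16.4), and Slfn3 and Slfn4 together 93.4-fold (51.9 to 188).

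**Figure D3:**
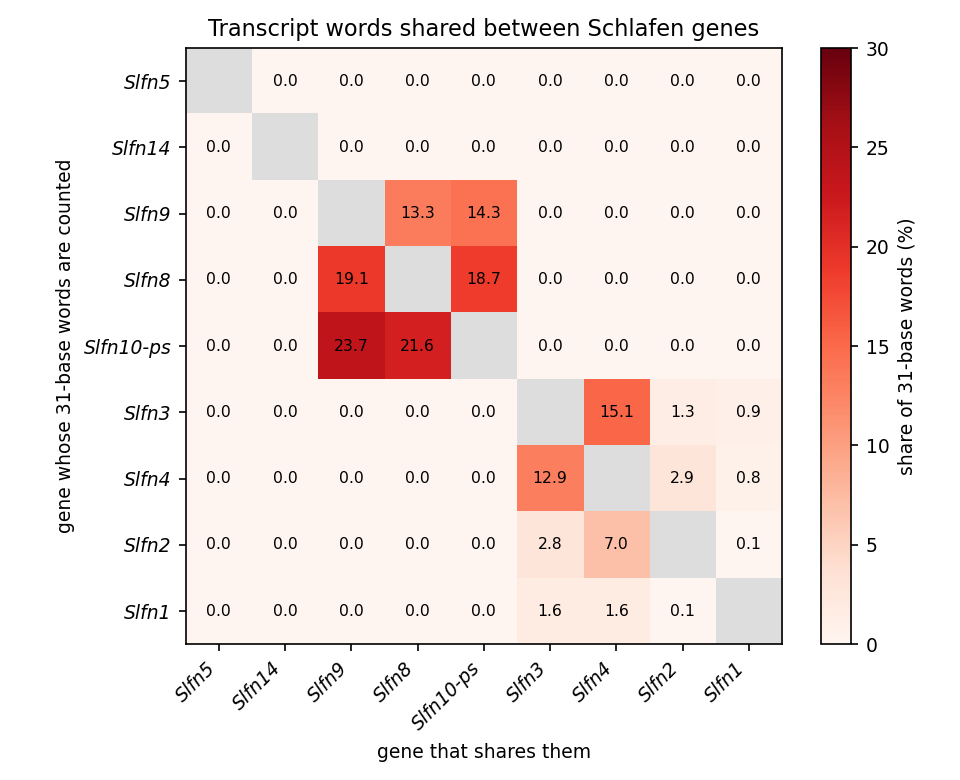
Share of the 31-base words of each Schlafen gene (rows) that also occur in another (columns), in percent, shown as shade and number. The shared words fall into 2 blocks, Slfn8 with Slfn9 and Slfn10-ps, and Slfn3 with Slfn4 and the short forms, while Slfn5 and Slfn14 share none.

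The balance of Slfn9 to Slfn8 turned over between the media. In regular medium the ratio of their CPM was 6.61, 6.11, 5.24 and 5.51 in replicates 1 to 4. In naive CM it was 7.85, 7.38, 7.34 and 8.22. In IFNγ/LPS CM it was 0.726, 0.78, 0.772 and 0.844, so that Slfn8 exceeded Slfn9 in every library of that group and in none of the others. The 3 groups did not overlap. An exact two-sided permutation test gave p = 0.0286 for IFNγ/LPS CM against naive CM and for naive CM against regular medium, the smallest p that 4 against 4 libraries allow, and 0.0286 after adjustment over the 2 comparisons. This ratio was chosen after its values had been seen, and a change in how reads were divided between the genes was not tested.

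The 2nd comparison set naive CM against regular medium, which differ in conditioning by resting macrophages. Starvation, serum and the 10 ng/mL M-CSF of the conditioned media may also have differed between these groups, and conditioning cannot be told apart from them. The long forms Slfn8 and Slfn9 were modestly higher in naive CM, and the remaining members were too low or too close for a firm difference. With edgeR, 3 of 7 members (Slfn5, Slfn8 and Slfn9) were called higher and none lower, where 34.7% of all genes tested were called in either direction and 18.3% higher. Slfn2 and Slfn5 are described with their limits.

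Slfn9 stood at 29.2, 22.99, 19.3 and 20.0 CPM in regular medium, against the 41.8 to 44.5 CPM of naive CM. The groups did not overlap, as was so in this direction for 17.2% of all genes tested. The rise was 1.86-fold, or 0.90 on the log2 scale (SE 0.103, edgeR adjusted p = 3.7e-05), and 1.04 on the log2 scale without regular medium replicate 1, the highest library of that group. Slfn8 stood at 4.41, 3.76, 3.69 and 3.63 CPM in regular medium, again with replicate 1 highest and all 4 libraries under naive CM. Its rise was 0.51 on the log2 scale (SE 0.0707, edgeR adjusted p = 1.53e-05). Pooled, Slfn8 and Slfn9 were 1.76-fold higher (counting interval 1.70 to 1.82).

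Slfn2 stood at 0.858, 1.02, 0.856 and 0.599 CPM in regular medium. Its highest library there overlapped the naive CM range, and the difference did not pass (log2 fold change 0.32, SE 0.14, edgeR adjusted p = 0.0853). It did pass without regular medium replicate 2 (log2 fold change 0.47, adjusted p = 0.0235). Slfn5 stood at 0.0687, 0.0442, 0.0329 and 0.0826 CPM in regular medium on 12 counts, against 32 counts in naive CM. The ratio was 2.73 with a counting interval of 1.37 to 5.82 and the call was at an edgeR adjusted p of 0.0349, but the lowest naive CM library, replicate 1, lay under all 4 regular medium libraries. That call was lost in 11 of 19 alternatives, for example when naive CM replicate 4 was left out, at 0.92 on the log2 scale (edgeR adjusted p = 0.187). With only naive CM and regular medium in the fit, Slfn5 did not pass the filter on low values and was not tested.

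Slfn3 had 9 counts in naive CM and 10 in regular medium (ratio 0.921, counting interval 0.331 to 2.52, edgeR adjusted p = 0.937). Slfn4 had 2 and 1 counts, and Slfn1 had 0 and 1. A difference in Slfn1, Slfn3 or Slfn4 between these media was not detectable at this depth.

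The comparison of IFNγ/LPS CM with regular medium shares its libraries with both others, so its values are given for the size only. Slfn2 stood 571-fold higher (log2 fold change 9.16), Slfn8 111-fold (6.80) and Slfn9 14.7-fold (3.88). Slfn5 had a ratio of summed counts of 855.5 (counting interval 489.5 to 1657), and Slfn3 of 62.3 (33.5 to 131). Slfn4 had a ratio of 429 (76.4 to 17010) and Slfn1 of 183.5 (32.4 to 7306), each on 1 count in regular medium. All 7 members were called higher with edgeR, where 71.8% of all genes tested were called in either direction and 35.4% higher. Slfn1, Slfn3, Slfn4 and Slfn5 passed the filter only through the IFNγ/LPS CM libraries, so their calls are not counted as support here either.

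Levels of different genes were compared per kb of the longest annotated transcript, since longer transcripts give more counts. In regular medium and in naive CM the order began with Slfn9, at 3.97 ± 0.778 and 7.44 ± 0.211 CPM per kb. Slfn8 followed at 0.966 ± 0.0904 and 1.39 ± 0.102 CPM per kb, and Slfn2 at 0.50 ± 0.104 and 0.637 ± 0.0372 CPM per kb. These 3 did not overlap with one another in either group. The remaining 4 lay at or under 0.0453 CPM per kb in every library and neighbours in their order overlapped.

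In IFNγ/LPS CM the order was another. Slfn2 came first at 292 ± 17.4 CPM per kb, then Slfn8 at 108 ± 3.62, Slfn9 at 58.7 ± 1.95 and Slfn5 at 8.38 ± 0.0369 CPM per kb. Slfn3 followed at 1.07 ± 0.128, Slfn4 at 0.53 ± 0.106 and Slfn1 at 0.479 ± 0.126 CPM per kb. The ranges of Slfn4 and Slfn1 overlapped, and no other neighbours in this order did.

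The make-up of the family turned from a long form to a short form. Slfn9 made up 72.4 ± 2.4% of the summed CPM per kb of the 7 members in regular medium and 78.2 ± 0.82% in naive CM, but 12.5 ± 0.91% in IFNγ/LPS CM. Slfn2 made up 9.23 ± 1.9%, 6.70 ± 0.35% and 62.1 ± 1.3%, and Slfn8 made up 17.9 ± 1.4%, 14.6 ± 0.65% and 23.1 ± 0.40% in the same order. Every library of IFNγ/LPS CM held at least 60.3% Slfn2, and the highest share in the other groups was 11%. Slfn5 made up 1.79 ± 0.076% in IFNγ/LPS CM and under 1% elsewhere. Summed without regard to length, the 7 members stood 26.6-fold higher in IFNγ/LPS CM than in naive CM and 1.74-fold higher in naive CM than in regular medium.

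**Figure D4:**
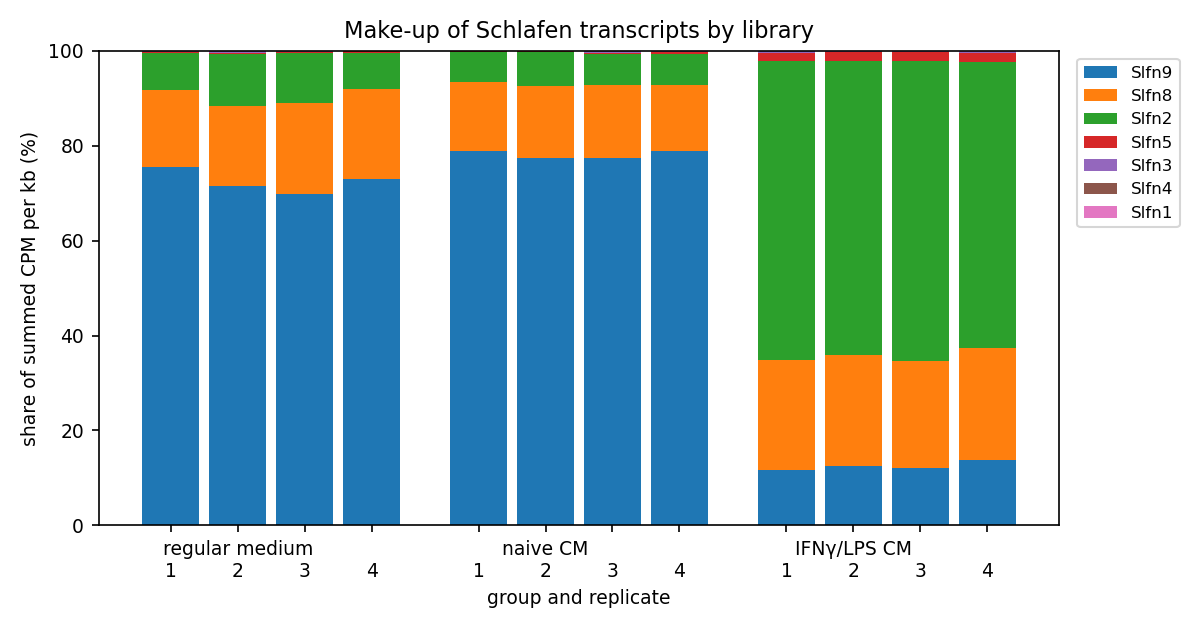
Share of each member in the summed CPM per kb of the 7 Schlafen genes, in percent, in each library of the 3 groups. Slfn9 fills 69.8 to 78.9% of the bar in the 8 libraries of regular medium and naive CM, and Slfn2 fills 60.3 to 63.2% in the 4 libraries of IFNγ/LPS CM.

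The table held 11 rows of the family in all, and the 4 that are not members were too low to be tested. Slfn10-ps, the pseudogene between Slfn8 and Slfn2, had 8 counts in naive CM replicate 1 and 0 elsewhere, although 32.4% of its 31-base words occur in other Schlafen genes. Slfn14, a long form known from megakaryocytes and platelets, had 5 counts in naive CM replicate 1, 2 counts in IFNγ/LPS CM replicate 4 and 1 count in each of 2 regular medium libraries. Slfnl1, a relative on chromosome 4, had 0 to 11 counts per library.

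Transcripts of interferon receptor and signalling genes were read in the same libraries, and their part in the Schlafen levels was not tested. Of 17 such genes, 17 were higher in IFNγ/LPS CM than in naive CM, where 36.1% of all genes tested were called higher. Their median log2 fold change was 3.18 against 0.004 over all genes tested. Scaled by library totals in place of TMM, the median of all genes was -0.38, and 16 of the 17 were higher and 1, Ifngr1, was lower. Usp18, which restrains signalling from the type I receptor, stood at 475 ± 30.9 CPM against 0.939 ± 0.226 CPM. Irf8, an interferon-induced transcription factor of myeloid cells, had 13 counts in naive CM and reached 31.3 ± 0.84 CPM, a ratio of 481 (281 to 904). Irf7, which drives type I interferon genes, stood at 679 ± 31.7 CPM against 2.99 ± 0.111 CPM (log2 fold change 7.83).

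Between naive CM and regular medium only Slfn8 and Slfn9 of the members moved without overlap. In that comparison 8 of the 17 genes were higher, 2 were lower and 7 missed the threshold. Of all genes tested 18.3% were called higher and 16.4% lower. The median of the 17 was 0.17 against -0.02 over all genes tested.

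Interferon-induced antiviral effectors, among them RNA helicases such as Ifih1 and Ddx58, were all higher in IFNγ/LPS CM than in naive CM. That was 19 of 19, against 36.1% of all genes tested, with a median log2 fold change of 6.14. With library totals 19 remained called higher. The largest rises were in Rsad2, an enzyme that makes an antiviral nucleotide, with 7 counts in naive CM and 1249 ± 26.1 CPM in IFNγ/LPS CM, and in Zbp1, a nucleic acid sensor, with 17 counts and 217.3 ± 15.1 CPM. Oas3, a sensor of double-stranded RNA, had 3 counts in naive CM and 32.5 ± 0.712 CPM, a ratio of 2165 (740.5 to 10500). Slfn9, at 2.98, lay near the low end of these genes, whose fitted log2 fold changes ran from 1.65 for Zc3hav1 upwards. From regular medium to naive CM 10 of the 19 were higher, 2 were lower and 7 missed the threshold. Of all genes tested 18.3% were called higher in that comparison.

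Because Slfn2 acts on transfer RNA, 15 genes of transfer RNA cleavage and protection were set beside the family. In IFNγ/LPS CM against naive CM 10 were higher, 2 were lower and 3 missed the threshold, around a median of 0.73 on the log2 scale; with library totals 8 were higher and 5 lower. The share called, 12 of 15, is near the 71.9% of all genes tested. By direction, 36.1% of all genes tested were called higher and 35.8% lower. Ang, angiogenin itself, stood at 16.0 ± 0.526 CPM against 9.09 ± 0.27 CPM (log2 fold change 0.81, edgeR adjusted p = 2.46e-09). Its inhibitor Rnh1 stood at 169 ± 9.30 CPM against 159.8 ± 4.18 CPM, and the difference missed the threshold (edgeR adjusted p = 0.11); with library totals it was called lower, at -0.30 on the log2 scale (edgeR adjusted p = 8.87e-06). The ratio of enzyme to inhibitor was not tested.

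Other nucleases of this list also rose. Zc3h12a, an RNase that degrades inflammatory messages, stood at 59.9 ± 3.65 CPM against 3.00 ± 0.157 CPM. Rnaset2b, a lysosomal RNase with a near-identical copy, Rnaset2a, among which reads may be divided, rose by 1.14 on the log2 scale. The 2 that fell were Trmt10a, a tRNA methyltransferase, by 0.41, and Elac2, which trims tRNA precursors, by 0.33. From regular medium to naive CM 2 of the 15 were higher, 2 lower and 11 did not pass.

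Schlafen genes are linked to quiescence, so 10 genes of quiescence and proliferation were also read. From naive CM to IFNγ/LPS CM 4 rose and 6 fell, with a median log2 fold change of -0.38 (3 higher and 6 lower with library totals), where 36.1% of all genes tested were called higher and 35.8% lower. From regular medium to naive CM 4 rose, 2 fell and 4 missed the threshold, and IFNγ/LPS CM against regular medium gave 3 higher and 4 lower with a median of -0.05. Klf2, a quiescence factor of T cells and vessels, rose from 0.916 ± 0.07 CPM to 9.99 ± 0.812 CPM, and Cdkn1a, an inhibitor of cyclin-dependent kinases, from 43.3 ± 2.81 CPM to 225 ± 15.4 CPM. Foxo3, a factor of the quiescent state, rose by 0.99 on the log2 scale. Foxo1 also rose, a call lost with library totals (log2 fold change -0.11, edgeR adjusted p = 0.191). Cdkn1b was among the 6 that fell, also with library totals (log2 fold change -0.53, edgeR adjusted p = 8.22e-10). Top2a, a topoisomerase of dividing cells, fell from 502 ± 12.6 CPM to 78.9 ± 15.3 CPM, and Mki67, the proliferation marker, and Mcm2, a replication helicase subunit, fell by 3.18 and 1.84 on the log2 scale. Mki67 and Top2a had themselves risen from regular medium to naive CM, by 1.88 and 1.98 on the log2 scale. Cdkn1a was called lower in that comparison with library totals (log2 fold change -0.52, edgeR adjusted p = 0.000131). The lists give what moved in the same libraries as the Schlafen genes, and whether any of it depends on a Schlafen gene was not tested.

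Most tested neighbouring genes moved less than the Schlafen members. Of 27 protein-coding genes within 500 kb of the cluster 17 were tested. Against naive CM, 9 were higher in IFNγ/LPS CM, 4 were lower and 4 missed the threshold, around a median of 0.23 on the log2 scale; with library totals 4 were higher and 8 lower. The share called, 13 of 17, is near the 71.9% of all genes tested. By direction, 36.1% of all genes tested were called higher and 35.8% lower. On the side of Slfn5, Nle1 was the nearest gene tested and differed by 0.60 on the log2 scale (edgeR adjusted p = 0.000207, lost with library totals), and Rffl, farther out, rose by 1.56. On the side of Slfn3, Ap2b1 differed by 0.33, also lost with library totals.

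Farther out the picture was mixed. Ccl5, a chemokine gene, stood at 895.8 ± 22.0 CPM in IFNγ/LPS CM with no count in naive CM, at least 59780-fold higher. Heatr9 stood at 5.37 ± 0.51 CPM and Wfdc17 at 0.739 ± 0.106 CPM, both with no count in naive CM, at least 358-fold and 49.4-fold higher. The neighbours that fell most were Rasl10b, a small GTPase gene, from 2.75 ± 0.0651 CPM to 0.411 ± 0.169 CPM, and Ccl9, another chemokine gene, from 9.46 ± 0.424 CPM to 1.96 ± 0.461 CPM. Ccl6, next to Ccl9, went from 54 to 10 counts (ratio 0.262, counting interval 0.119 to 0.519).

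**Figure D5:**
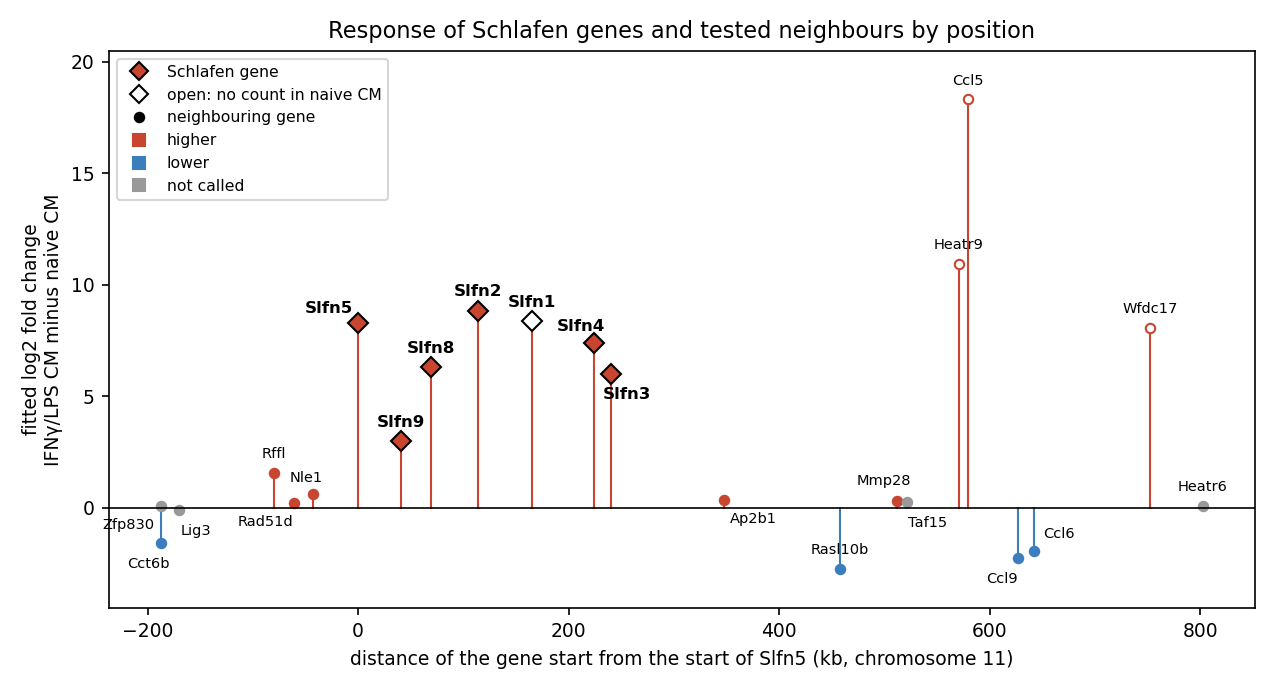
Fitted log2 fold change of IFNγ/LPS CM against naive CM for the 7 Schlafen members (diamonds) and tested neighbours (circles; 1 of the 17 is not drawn), plotted by the distance of each gene from the start of Slfn5 in kb; colours mark the edgeR call and open symbols mark genes with no count in naive CM, whose fitted values are not bounds. The Schlafen members form a stretch between 2.98 (Slfn9) and 8.84 (Slfn2), flanked by tested genes that rose by 1.56 or less (Rffl). The exceptions are Heatr9, Ccl5 and Wfdc17, at 570.8, 579.2 and 752.6 kb from the start of Slfn5. They all lie within 500 kb of the cluster.

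For each member the genes with the most similar pattern were sought among 15679 genes, by the Euclidean distance between mean-centred log2 CPM over the 12 libraries. Nearest to Slfn2 were Ccl8 (distance 0.748), a monocyte chemokine, Serpina3i (0.767) and Apol10b (0.876). Ccl8 and Serpina3i had no count outside IFNγ/LPS CM and Apol10b next to none, so their profiles, unlike that of Slfn2, depend on the prior count of 2 added before taking logs. Nearest to Slfn8 were Psmb9 (0.428), a subunit of the immunoproteasome, Phf11d (0.644) and Tnfaip2 (0.66). Slfn8 and Psmb9 ran close through all 3 media: Psmb9 stood at 1.79 ± 0.163, 3.00 ± 0.18 and 210.6 ± 4.43 CPM in regular medium, naive CM and IFNγ/LPS CM.

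Slfn9 had other company. Its nearest genes were Pgk1 (0.636), a glycolytic kinase, Ifitm3 (0.678), an antiviral membrane protein, and Tnfaip6 (0.692), a hyaluronan-binding protein. All 3 were also higher in naive CM than in regular medium, Pgk1 2.17-fold, Ifitm3 2.09-fold and Tnfaip6 2.40-fold, where Slfn9 was 1.86-fold higher. The nearest to Slfn5 were Irf8 (1.67), Phf11a (1.87) and Ddx60 (1.88). Slfn5 had 32 counts in naive CM and 12 in regular medium, and scatter at such counts adds to its distance from any gene. For the low members the nearest were Ifi47, Clec4d and Ifit2 for Slfn1 (0.783 to 0.821), Slamf7, H2-T10 and Fpr2 for Slfn4 (0.651 to 0.699) and Pou2f2, H2-DMa and Tlr2 for Slfn3 (1.25 to 1.34). These distances rest on 3 levels measured 4 times and on log2 CPM with a prior count of 2, which holds up the low values. For genes at or near 0 outside IFNγ/LPS CM the distance is set largely by that prior, and nearness there does not mean a like fold change.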

How the data were processed

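Stranded libraries of polyadenylated RNA were sequenced with paired reads, per the labels' protocols. Per the submitters' processing notes, Salmon 1.10.1 and the mm10 build were used. The authors deposited expected counts per gene (estimated counts) as whole numbers, 1 column per library. Annotation release, summing to genes and rounding: not given in the sources used here. Of 55822 gene identifiers 51344 (92%) matched a symbol in GENCODE M21.

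In R 4.3.3, edgeR 4.0.16 kept 16140 genes (filterByExpr by group), scaled them by TMM (factors 0.8335 to 0.8421 in IFNγ/LPS CM and 1.078 to 1.108 elsewhere) and tested them with the robust two-sided quasi-likelihood F-test in 1 model of 12 libraries (9 residual degrees of freedom), with Benjamini-Hochberg adjustment over all genes and a threshold of 0.05. The fitting code was tested on simulated data. CPM were computed on the TMM-scaled total of the whole table. Ratios are scaled summed counts with exact conditional 95% intervals; for a total of 0, 3 counts were assumed. Levels between genes are CPM per kb of the longest transcript. Libraries with the same number were not treated as paired: their deviations correlated at -0.0637 to 0.0679 over 12 pairs, under the threshold of 0.1.

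Alternatives were DESeq2 size factors, library totals, no filter, a filter of 1 CPM in 4 libraries, limma-voom (limma 3.58.1), the Wald test of DESeq2 1.42.0, only the compared groups, the replicate number as a block, each library left out in turn, and union exon length for levels. The genes named are all members, all other Schlafen rows and the 3 genes nearest in pattern to each member. Up to 3 with the largest called change in each direction of each list and of the neighbours are named too. Ang, Rnh1, Ifngr1, Zc3hav1, Nle1, Rffl, Ap2b1, Foxo1, Cdkn1b and the markers fall outside that rule, their values being known when they were picked. Some genes are not reported here. The members and lists were chosen with earlier results of these data known.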

Additional observations from a re-analysis of the deposited data

Results flagged for a closer look

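Each of 27 groups of 4 libraries of a Schlafen row was searched for an outlying library. Its gap to the nearest neighbour had to exceed Dixon's critical share of the group's range. For normally distributed values chance gives this in about 1 in 20 groups. That rate does not hold where all other libraries have no count, since any count then makes the gap the whole range. Such a library was found in 6 groups. The only one with more than 8 counts was Slfn8 in regular medium, where replicate 1 stood at 4.41 CPM (257 counts) and the others at 3.63 to 3.76 CPM, a gap of 0.837 of the range. The same library was the highest of its group for Slfn9. Without it the rise of Slfn8 from regular medium to naive CM was 0.58 on the log2 scale in place of 0.51 (edgeR adjusted p = 3.07e-06).

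The other 5 were single libraries with 1 to 8 counts beside 3 libraries with none. They were Slfn1 in regular medium replicate 1 at 0.0172 CPM (1 count), Slfn4 in regular medium replicate 2 at 0.0147 CPM (1 count), Slfn10-ps in naive CM replicate 1 at 0.166 CPM (8 counts), Slfn14 in naive CM replicate 1 at 0.104 CPM (5 counts) and Slfn14 in IFNγ/LPS CM replicate 4 at 0.059 CPM (2 counts).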

How the results depend on the processing

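For IFNγ/LPS CM against naive CM and against regular medium, the members kept direction and call in each of the 139 values per comparison, over 20 settings. Slfn1 did not pass the filter of 1 CPM in 4 libraries, where 6 members were called. Slfn1, Slfn3, Slfn4 and Slfn5 pass the main filter only through the IFNγ/LPS CM libraries, so their calls are not counted as support under any setting. With each library left out in turn, 7 members were called in both comparisons, and 2 to 3 from regular medium to naive CM. Over the same 12 fits the genes called numbered 11275 to 11958, 11219 to 11663 and 4683 to 5624, in that order of comparisons. With the replicate number as a block, 7, 7 and 2 members and 11653, 11610 and 5780 genes were called, and the call that ended was that of Slfn5 in naive CM against regular medium (edgeR adjusted p = 0.0726); the numbers were not taken to pair the libraries. That call, at 12 and 32 counts, was lost in 11 of 19 alternatives. Over the 19, log2 fold changes ran from 0.92 to 1.76 and adjusted p from 0.000775 to 0.22. It was lost under limma-voom (0.22), under the block, and without naive CM replicates 2, 3 or 4. The same held without IFNγ/LPS CM replicates 1, 2 or 3, or regular medium replicates 1, 2 or 3, each left out in turn. With only naive CM and regular medium in the fit, Slfn5 did not pass the filter. In the same comparison Slfn2 passed without regular medium replicate 2, and Slfn3 ran from -0.42 to 0.41 over the libraries left out, turning from -0.09 to 0.41 without naive CM replicate 2 (adjusted p = 0.687) and to 0.30 without regular medium replicate 2 (adjusted p = 0.813). With library totals the calls of all genes in IFNγ/LPS CM against naive CM split into 3279 higher and 9371 lower, against 5830 and 5781 with TMM. In that comparison the log2 fold changes of Slfn2, Slfn8 and Slfn9 were 8.45, 5.90 and 2.59 with library totals, in place of 8.84, 6.29 and 2.98. The SE given for these genes do not cover the choice of scaling. Per kb of union exon length, 3 of 21 levels moved by more than 1 SD: Slfn3 and Slfn5 in IFNγ/LPS CM to 0.889 and 7.92 CPM per kb, and Slfn9 in naive CM to 7.20. Depth limits Slfn1, Slfn3, Slfn4 and Slfn5 outside IFNγ/LPS CM, where each had at most 32 counts per group.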

Other observations

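The 4 libraries of IFNγ/LPS CM lay closer together for Slfn5 than counting alone would place them. Their coefficient of variation was 0.44%, while counting alone gives 2.37% at their 1709 to 1866 counts. This is 1 of 21 levels of a member in a group, and whether so small a spread exceeds chance was not tested. Slfn2, Slfn8 and Slfn9 varied by 5.96%, 3.34% and 3.32% in the same libraries, above their counting error of 0.762%, 0.806% and 0.913%. In regular medium Slfn9 varied by 19.6% between libraries where counting gives 2.88%, against 2.84% and 2.16% in naive CM. Slfn8 varied by 9.36% in regular medium, where counting gives 7.07%. In naive CM Slfn2 varied by 5.84% where counting gives 13.7%, and Slfn5 by 66.6% where counting gives 35.4%.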
